A study of Homo sapiens with 13 samples.

Results

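The WNT ligand genes, the genes of their Frizzled (FZD) receptors and those of the LRP5 and LRP6 co-receptors were examined in the chromatin of MDA-MB-231 cells. The members were listed by family name, with no measured value used, as 19 WNT genes, 10 FZD genes and 2 LRP genes. All 31 were found among the 19894 protein-coding genes that have a canonical transcription start site (TSS) in GENCODE release 44 on GRCh37 (hg19). MDA-MB-231 is an established human line of triple-negative breast cancer, which the labels class as basal B. The cells were untreated and grown in serum-containing medium, so every value below describes a single line in 1 culture condition. Chromatin immunoprecipitation followed by sequencing (ChIP-seq) had been carried out for 3 histone marks (H3K4me1, H3K4me3 and H3K27ac), for RNA polymerase II (Pol II), for CTCF and for the acetyltransferases p300/CBP. There were 2 independent replicates for each target apart from p300/CBP, which had 1 library, and the input libraries were not used here.

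WNT proteins are secreted, lipid-modified signals that bind the cysteine-rich domain of Frizzled receptors on the same or a neighbouring cell. When a Frizzled binds a WNT together with LRP5 or LRP6, beta-catenin is spared from degradation and acts with TCF/LEF factors in the nucleus, whereas other WNT and Frizzled pairs act on cell polarity and movement without beta-catenin. In the mammary gland these genes are known for their part in branching and in stem cell maintenance, and WNT1 and WNT3 were found as sites where mouse mammary tumour virus inserts.

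The deposited files are 6 lists of peaks, 1 for each target, that give positions and no height. Since replicates were merged before the peaks were called, no replicate error exists, depth is unknown and no test between groups of genes was possible. Shares among the members are therefore set beside the same share over all protein-coding genes, as descriptions. The lists held between 13984 peaks, for p300/CBP, and 88319 peaks, for H3K4me1. H3K27ac and Pol II were both listed at the TSSs of 5 of 5 marker genes of basal B lines and of 3 of 8 luminal and epithelial markers (FOXA1, KRT8 and ERBB3), with neither at ESR1, PGR, GATA3, CDH1 or EPCAM. A peak is a stretch in which the signal passed the authors' threshold, so a gene with no peak may carry signal below it, and none of the lists measures RNA.

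To see which members carried marks of active promoters, each list was read over a 3-kb window centred on the canonical TSS, where 1 shared base counted as a peak. H3K27ac and H3K4me3 mark active promoters, Pol II marks the polymerase itself, and H3K4me1 is more typical of enhancers and of the flanks of promoters. H3K27ac was listed at 16 of the 31 members, against 61.4% of all protein-coding genes. The receptors and the ligands stood on opposite sides of that figure, with 8 of 10 FZD genes and both LRP genes marked but only 6 of 19 WNT genes. H3K4me3 was listed at 19 members (62.7% of all genes), namely 9 WNT, 8 FZD and 2 LRP genes. Pol II separated the families furthest. It was listed at 12 members (58.4% of all genes), of which 8 were FZD genes, 2 were LRP genes and 2 were WNT genes, WNT9A and WNT10B. H3K4me1 did not follow this division, being listed at 20 members (59.3% of all genes): 12 WNT, 7 FZD and 1 LRP. Its count depended on the window, and with 1 kb in place of 3 kb it was listed at 5 WNT, 2 FZD and 1 LRP genes. Where 50% of the peak or window had to be shared, it was listed at 9 WNT, 4 FZD and 0 LRP genes.

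**Figure D1:**
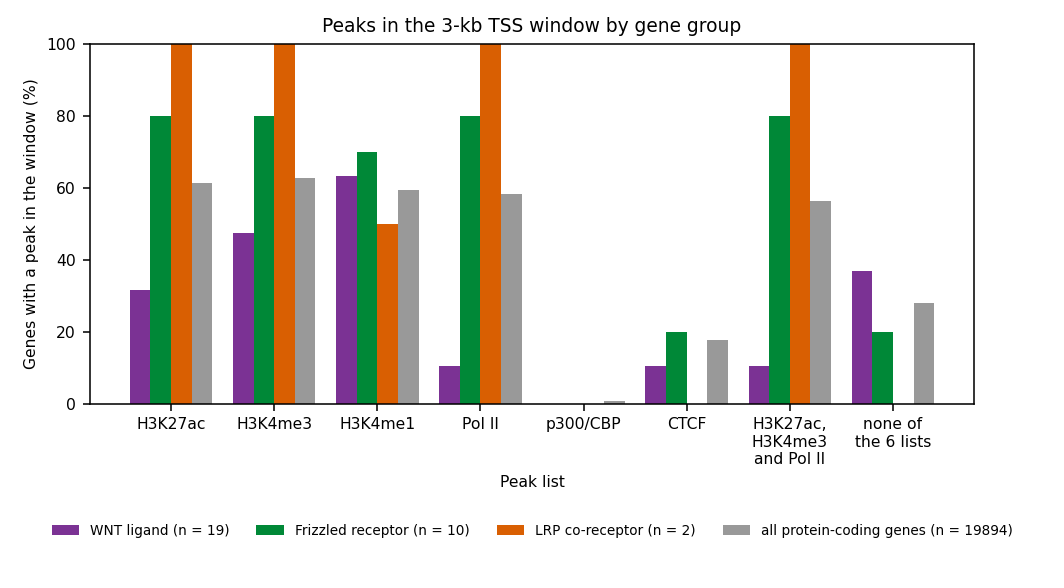
Percentage of genes with at least 1 peak of each list in the 3-kb window on the TSS (vertical axis) for 19 WNT, 10 Frizzled and 2 LRP genes and for all 19894 protein-coding genes, as bars without error because replicates had been merged. The FZD bars stand at 80% for H3K27ac, H3K4me3 and Pol II, and the WNT bars at 31.6%, 47.4% and 10.5%.

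Read gene by gene, the windows were sorted into 5 classes, some of which set H3K4me1 and CTCF aside. The first, H3K27ac, H3K4me3 and Pol II together, was found at 12 members (56.2% of all genes): FZD1 to FZD8, LRP5, LRP6, WNT9A and WNT10B. In the second, H3K27ac and H3K4me3 were present without Pol II. This held at 4 members, all of them ligands (WNT2B, WNT5A, WNT7B and WNT11), and at 3.79% of all genes. H3K4me3 without H3K27ac was found at WNT4, WNT5B and WNT10A (2.68% of all genes), and H3K4me1 as the only list at WNT1, WNT3 and WNT3A (4.29%). The remaining 9 members had no peak of any of the 6 lists (28.0% of all genes). These were 7 ligands (WNT2, WNT6, WNT7A, WNT8A, WNT8B, WNT9B and WNT16) and 2 receptors, FZD9 and FZD10.

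**Figure D2:**
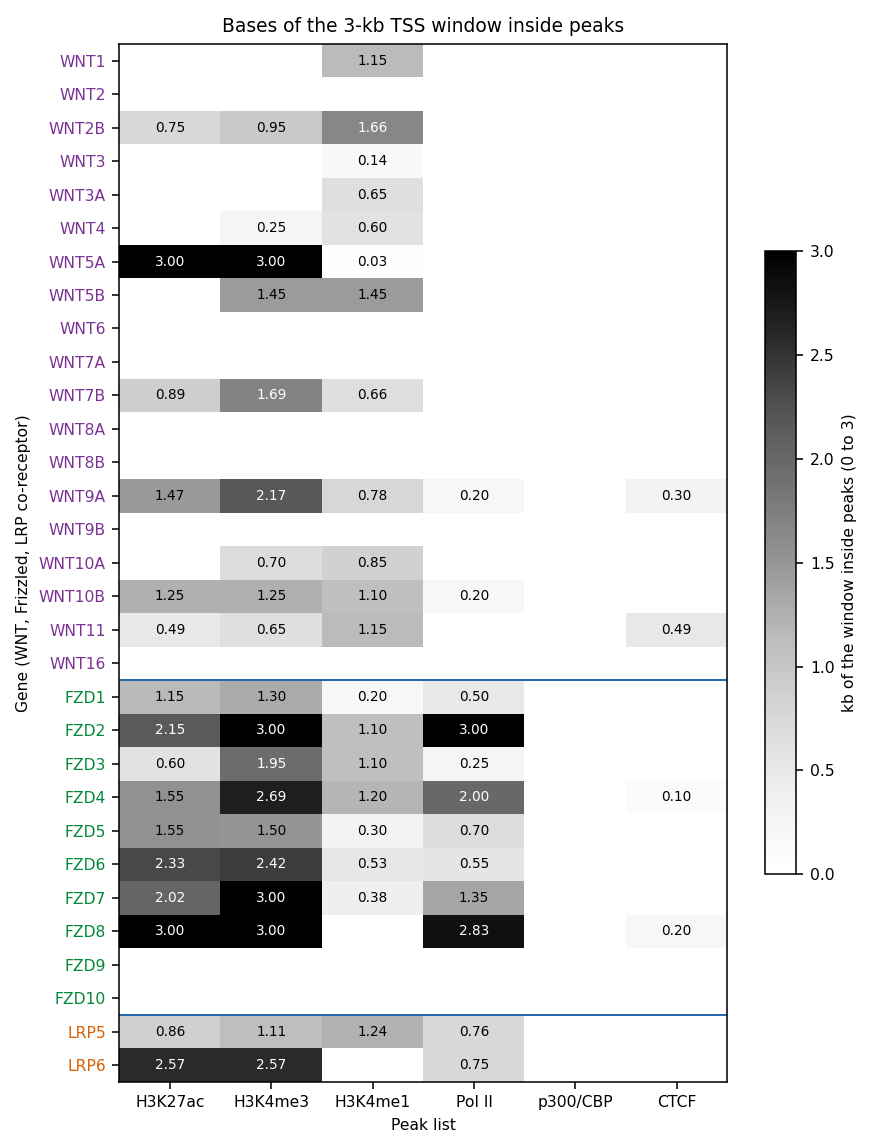
Kilobases of the 3-kb window on the TSS that lie inside peaks (number and shade, 0 to 3) for each of the 31 genes (rows) and 6 peak lists (columns); a blank cell is a window with no peak. FZD2 and FZD8 are dark for H3K27ac, H3K4me3 and Pol II, and WNT5A is the ligand whose window both promoter marks fill, with a blank cell for Pol II.

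p300/CBP was listed at 0 of the 31 windows, beside 0.769% of all genes, so the list seldom reaches promoters of any kind. CTCF, the DNA-binding protein that anchors chromatin loops, was listed at 4 windows (17.6% of all genes). Its peaks lay 1.03 kb downstream of the WNT9A TSS, 1005 bp upstream of that of WNT11, 0.614 kb upstream of that of FZD4 and 0.227 kb upstream of that of FZD8, measured to the nearer end.

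The members' promoters were then compared by base composition, which the peak lists do not use. A window was called CpG-rich when the 1 kb around the TSS had an observed-to-expected CpG ratio of at least 0.6 and a G+C content of at least 55%. This held for 25 of the 31 members (60.2% of all genes), including 10 of 10 FZD genes, both LRP genes and 13 of 19 WNT genes. Among members with H3K27ac 15 of 16 were CpG-rich, with WNT10B the exception, and among those without it 10 of 15 were. Over all genes the shares were 79.6% with H3K27ac and 29.3% without. The receptor promoters without marks were within the range of the others, with ratios of 0.886 at FZD9 and 0.903 at FZD10 beside a range of 0.728 (FZD2) to 0.963 (FZD7) for the other 8.

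Below are the 250 bases that precede the TSS at 3 members that were not both CpG-rich and marked with H3K27ac, read 5′ to 3′ on the strand of the gene in GRCh37 with every CG in capitals. FZD9 (chr7:72847858-72848107, + strand) was CpG-rich and unmarked, with 23 CG. WNT10B (chr12:49365519-49365768, - strand) was marked but not CpG-rich, with 18 CG of which most lie in a run of alternating bases. WNT8B (chr10:102222516-102222765, + strand) was neither, with 3 CG. None of these 3 stretches overlaps an annotated exon.
FZD9: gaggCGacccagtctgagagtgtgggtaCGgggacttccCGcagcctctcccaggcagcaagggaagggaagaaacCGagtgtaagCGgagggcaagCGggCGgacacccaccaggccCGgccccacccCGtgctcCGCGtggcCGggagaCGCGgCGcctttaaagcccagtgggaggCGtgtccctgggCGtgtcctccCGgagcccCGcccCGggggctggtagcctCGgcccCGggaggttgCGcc
WNT10B: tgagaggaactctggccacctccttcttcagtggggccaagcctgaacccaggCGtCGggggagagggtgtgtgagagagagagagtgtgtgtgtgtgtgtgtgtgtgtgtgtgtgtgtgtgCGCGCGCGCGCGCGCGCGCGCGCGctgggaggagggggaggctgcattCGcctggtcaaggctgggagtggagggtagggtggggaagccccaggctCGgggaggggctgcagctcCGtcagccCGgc
WNT8B: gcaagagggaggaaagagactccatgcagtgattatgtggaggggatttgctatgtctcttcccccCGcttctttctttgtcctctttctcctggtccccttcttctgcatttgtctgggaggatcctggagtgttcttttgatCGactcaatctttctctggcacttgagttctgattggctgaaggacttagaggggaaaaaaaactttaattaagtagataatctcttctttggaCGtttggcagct

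Short sequences that bear on the factors studied were searched for in the same 250 bases of all members, on both strands. The AP-1 consensus is TGAGTCA or TGACTCA, and a looser form was searched for, TGANTCA with any base at N. It was found at 0 members (4.69% of all genes), and CTTTGAT, a TCF/LEF core, at 0 members (1.72%). AGGGGGC, letters from the CTCF site, was found at 7 members (17.9%): WNT1, WNT6, WNT7A, FZD2, FZD4, FZD5 and FZD7. It was in none of the 4 CTCF peaks that lie in members' windows, beside 10.4% to 34.9% of CTCF peaks of the same widths genome-wide. Only FZD4 had both these letters before its TSS and a CTCF peak in its window. A match of letters is no evidence of binding, and its absence says nothing of the factor.

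Among the ligands with both promoter marks, WNT5A had the widest of them. WNT5A is the best known of the WNTs that act without beta-catenin, on cell movement. Its H3K27ac peak of 4000 bp ran from 1.62 kb upstream of the TSS to 2.38 kb downstream, and its H3K4me3 peak of 4.10 kb from 1.72 kb upstream to the same base downstream. These were wider than the widest H3K27ac peak at 87.5% of the windows that have one and than the widest H3K4me3 peak at 90.9%. No Pol II peak lay in the window, in the gene body or in the 50 kb on either side. Such an absence of Pol II from a whole locus was seen at 2 other members, WNT2 and FZD10, neither of which had H3K27ac, while 80.9% of all genes had at least 1 Pol II peak in the locus. WNT5A has 3 annotated start sites. The window of the site 2.64 kb upstream also held H3K27ac, H3K4me3 and H3K4me1, whereas that of the site 5.91 kb downstream had no peak. The H3K27ac and H3K4me3 there were the upstream ends of the same peaks, which stop short of the site.

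WNT7B, WNT11 and WNT2B had the same marks in smaller or displaced peaks. At WNT7B, a ligand that acts through beta-catenin in lung and kidney development, H3K27ac lay on both sides of the TSS, in peaks of 1550 bp upstream and 250 bp downstream, and H3K4me3 likewise in peaks of 2150 bp and 350 bp. At WNT11, a ligand of gastrulation movements, the marks lay upstream of the canonical TSS only. Its 500-bp H3K27ac peak ended 1005 bp before the TSS and its 3050-bp H3K4me3 peak 855 bp before it. The annotated gene span begins further upstream than either peak, so both lay inside the gene. The H3K27ac peak had the same start and end as the CTCF peak of that window, which was so for 3 of the 41034 H3K27ac peaks of the genome (0.00731%), a count made after the values were seen. Both calls rest on the same 500 bp there, and whether they are separate signals was not tested. At WNT2B, a relative of WNT2, H3K27ac (750 bp) and H3K4me3 (950 bp) also lay upstream only, and the TSS itself was inside an H3K4me1 peak of 3.50 kb. No other member had its TSS inside an H3K4me1 peak, as 8.37% of all genes did.

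Start sites other than the canonical one changed the account of WNT2B and WNT3. The start sites of WNT2B that lie 41.5 kb and 42.4 kb upstream of the canonical TSS were in windows with H3K27ac, H3K4me3, H3K4me1, Pol II and CTCF. In WNT3, the other gene found at a mouse mammary tumour virus insertion site, the canonical TSS had H3K4me1 only, in a peak that begins 1.36 kb downstream. The annotated start sites 46.4 kb and 47.2 kb further into WNT3 nevertheless had H3K27ac, H3K4me3, H3K4me1 and Pol II in their windows. With any such start site allowed, 4 WNT genes in place of 2 had Pol II in a window.

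Polymerase at the canonical TSS of a ligand was limited to 2 small peaks. WNT9A, a ligand of joint and skeletal development, had a Pol II peak of 200 bp that ended 168 bp before the TSS, with H3K27ac and H3K4me3 on both sides of it. WNT10B, whose product holds back fat cell formation, had a Pol II peak of 200 bp over its TSS, inside an H3K27ac peak and an H3K4me3 peak that shared both ends and measured 1250 bp. Both ends were shared with an H3K4me3 peak by 1.31% of all H3K27ac peaks. Of the windows with Pol II, 1.58% had a widest peak narrower than the Pol II peaks of WNT9A and WNT10B. Both were below the median width of the Pol II list, and a count of peaks no narrower than that median gave 0 of 19 WNT genes and 4 of 10 FZD genes.

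The 3 ligands with H3K4me3 and no H3K27ac had narrow peaks to one side of the TSS. WNT4, which acts in mammary branching downstream of progesterone, had a 250-bp H3K4me3 peak that ended 611 bp upstream, inside the annotated gene span. WNT10A, an ectodermal ligand, had one of 700 bp that ended 24 bp upstream, and WNT5B, the closest relative of WNT5A, one of 1450 bp that began 54 bp downstream. Pol II was absent from these windows but not from the annotated gene spans. At WNT4 it covered 16.1% of the gene body, in 4 peaks that lie 16.5 to 24.3 kb downstream of the TSS. At WNT5B it covered 1.75% and at WNT10A 0.801%. The widest of the WNT5B peaks, of 1200 bp, lay in the TSS window of FBXL14, 35.1 kb upstream of the canonical WNT5B TSS. Another, of 700 bp, lay 10.1 kb downstream of it. Pol II in the gene body and not in the window was found at 7 members (6.97% of all genes), all of them ligands, the others being WNT8B (4.34% of the body), WNT3 (3.54%), WNT3A (1.84%) and WNT2B (1.08%). The Pol II peak of WNT2B and the larger one of WNT3 lay at the other start sites described above. In WNT8B and WNT3A the shares came from peaks of 900 bp and 1000 bp. Among the 3 ligands with H3K4me1 alone, the peak covered 1146 bp of the window at WNT1, 652 bp at WNT3A and 143 bp at WNT3.

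**Figure D3:**
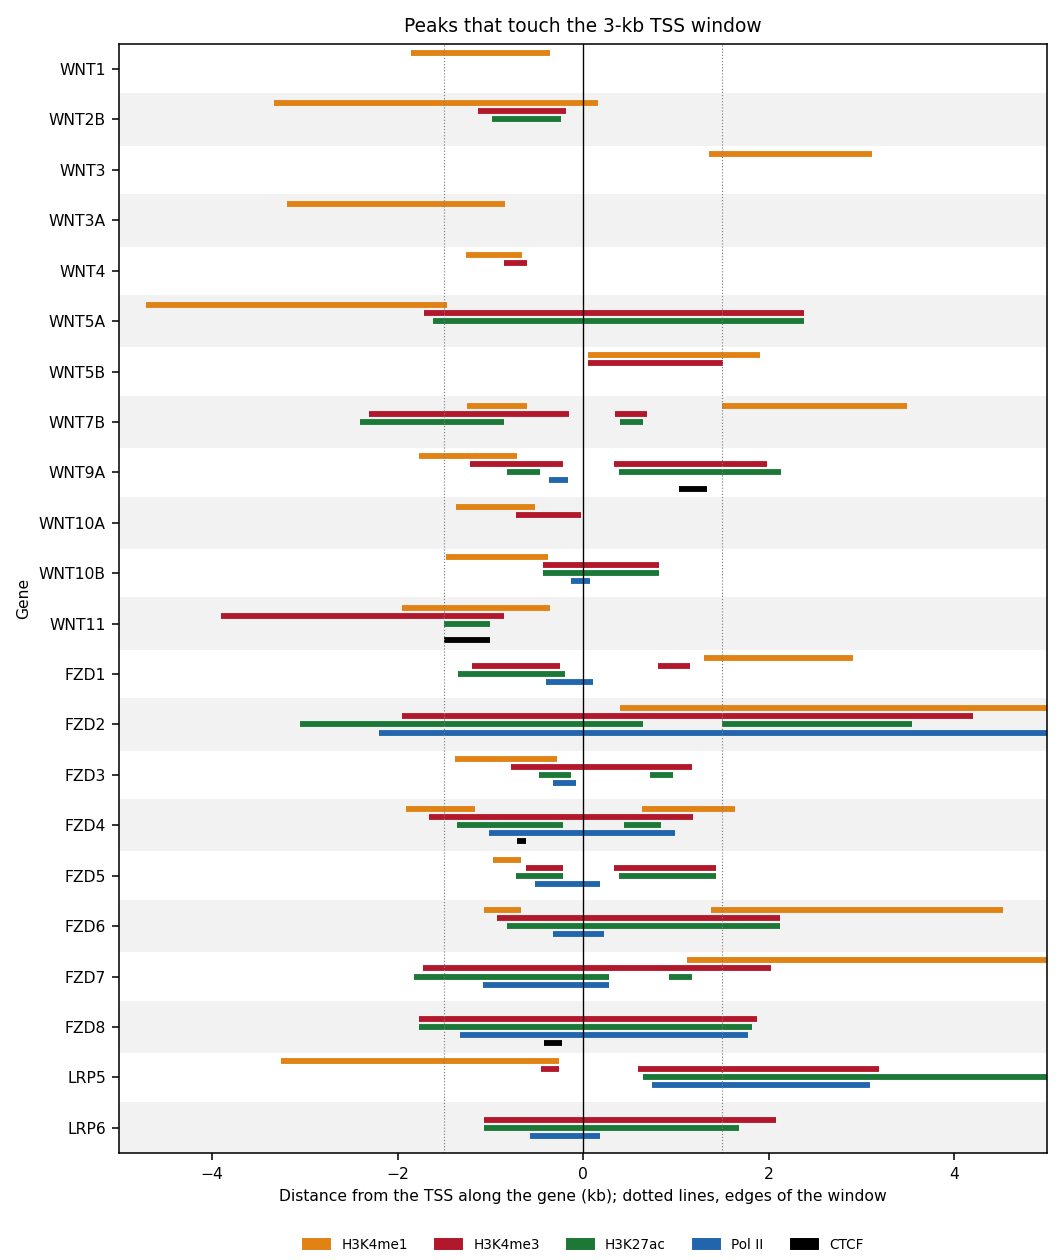
Peaks of H3K4me1, H3K4me3, H3K27ac, Pol II and CTCF that touch the 3-kb window on the TSS, drawn to scale by distance from the TSS along the gene in kb and clipped at 5 kb, for the 22 members with at least 1 peak. Pol II bars cross the TSS line at FZD1, FZD2 and FZD4 to FZD8, at LRP6 and at WNT10B, and the H3K27ac bars of WNT7B, WNT9A, FZD3, FZD4 and FZD5 leave a gap at the line.

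At the 8 marked receptors Pol II crossed the TSS in 7, the exception being FZD3. FZD2 stood out by width. It had a Pol II peak of 9.40 kb, from 2.20 kb upstream to 7.20 kb downstream, which covered 100% of its gene of 3.78 kb. It was the only member with Pol II over at least 50% of the gene body, a state shared by 6.68% of all genes. Its H3K4me3 peak of 6.15 kb was wider than those at 97.9% of the windows with H3K4me3, and the Pol II peak wider than those at 95.1% of the windows with Pol II. FZD8 came next, with Pol II over 43.8% of a gene of 4.05 kb, and it ranked next in H3K27ac too, which covered 45.0% of its body and 71.4% of that of FZD2. In 14 members no Pol II peak touched the gene body (36.4% of all genes), FZD3 among them. FZD genes are short, since most have a single coding exon, and a promoter peak takes up more of such a gene: the median length was 5.74 kb for FZD and 26.7 kb for WNT genes.

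FZD7, a receptor much studied in triple-negative breast cancer, had an H3K4me3 peak of 3.75 kb across the TSS, an H3K27ac peak of 2.10 kb and a Pol II peak of 1.35 kb. FZD4, which also binds the non-WNT ligand norrin, had H3K4me3 over 2.85 kb and Pol II over 2.00 kb, with H3K27ac on both sides of the TSS in peaks of 1150 bp and 400 bp. FZD6, a receptor of planar cell polarity, had H3K27ac over 2.95 kb and H3K4me3 over 3.05 kb but a Pol II peak of 550 bp. Its relative FZD3, which guides axons by the same pathway, had the narrowest Pol II peak of the 8, one of 250 bp that ended 79 bp before the TSS, and H3K27ac peaks of 350 bp and 250 bp. Its H3K4me3 peak, of 1950 bp, crossed the TSS and was wider than those of FZD1 and FZD5. FZD5 had H3K27ac and H3K4me3 on both sides of the TSS. Its 700-bp Pol II peak lay over the TSS and overlapped the upstream peak of each mark. FZD1 had H3K27ac upstream only, over 1150 bp, and a Pol II peak of 500 bp over its TSS.

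The co-receptors differed from each other in where the marks lay. At LRP6 the H3K27ac peak of 2.75 kb, the H3K4me3 peak of 3.15 kb and the Pol II peak of 750 bp all crossed the TSS. At LRP5, known for its control of bone mass, none of them did. Its H3K27ac peak of 4.70 kb, the widest among the members, began 0.642 kb downstream, and its Pol II peak of 2.35 kb began 0.742 kb downstream. With a 1-kb window in place of 3 kb, H3K27ac and Pol II were accordingly found at LRP6 and not at LRP5.

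**Figure D4:**
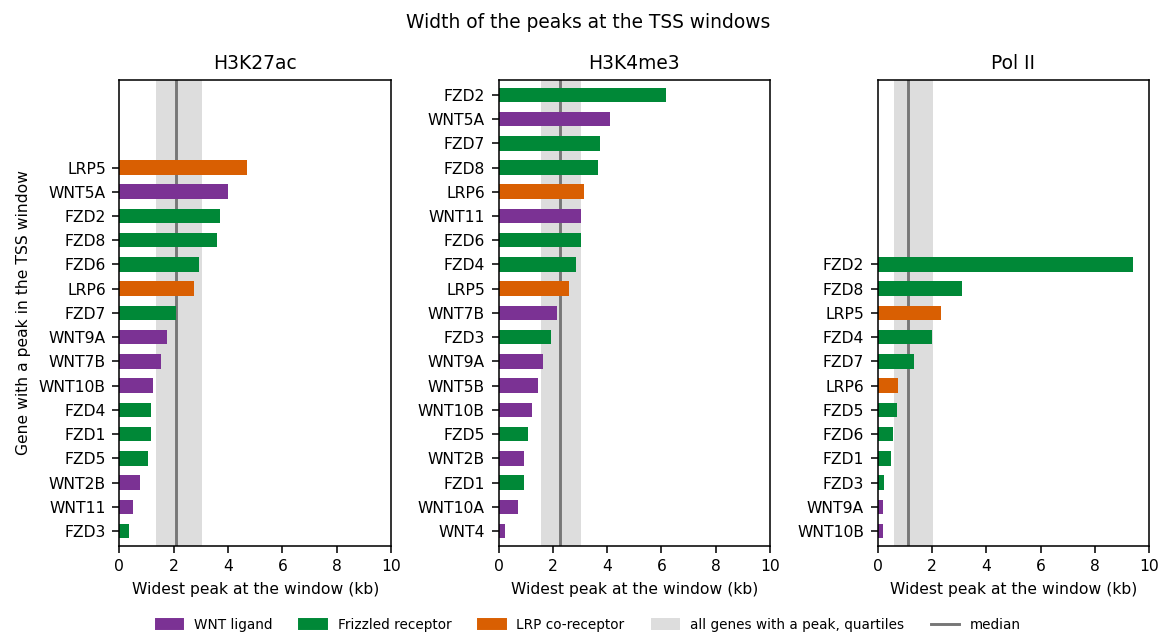
Width in kb of the widest H3K27ac, H3K4me3 or Pol II peak that touches the window on the TSS (bars from 0) for the members with such a peak, over the quartiles (grey band) and median (line) of all windows with a peak of that list. FZD2 (6.15 kb and 9.40 kb) has the longest H3K4me3 and Pol II bars, and WNT9A and WNT10B (200 bp) the shortest Pol II bars.

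Peaks that lie beside the TSS and not over it were common among the members. Of the 16 members with H3K27ac, the TSS base was inside the mark at 7 (47.6% of all genes, and 77.4% of the genes with H3K27ac in the window). At 5 members H3K27ac lay on both sides (12.0% of the genes with H3K27ac), at 3 upstream only (4.33%) and at LRP5 downstream only (6.19%). H3K4me3 was over the TSS base at 9 of 19 members (52.2% of all genes and 83.3% of those with H3K4me3). It lay on both sides at 5 (8.62%), upstream only at 4 (2.81%) and downstream only at WNT5B (5.29%). All 4 with H3K4me3 upstream only were ligands (WNT2B, WNT4, WNT10A and WNT11). At WNT2B, WNT4 and WNT11 the annotated gene begins upstream of the canonical TSS and of these peaks. The place given to a peak there depends on the TSS chosen. Pol II was over the TSS base at 9 of 12 members (51.2% of all genes and 87.7% of those with Pol II). At WNT9A and FZD3 it was upstream only (7.69%), at LRP5 downstream only (3.24%) and at 0 members on both sides (1.39%). H3K4me1 was on both sides of the TSS at 3 of 20 members (41.2% of the genes with H3K4me1), upstream only at 11 (22.5%) and downstream only at 5 (22.2%).

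To look beyond promoters, the locus of each member was taken as the gene with 50 kb on either side, and the 31 loci merged into 27 stretches of 3.94 Mb in all. A candidate active enhancer (cAE) was an H3K4me1 region that shares a base with H3K27ac and touches no coding TSS window, and a candidate inactive enhancer (cIE) was one without H3K27ac. The loci held 69 cAEs and 136 cIEs. At least 1 cAE lay in 25 of the 31 loci (69.0% of all genes), with none at WNT2, WNT5A, WNT8A, FZD3, FZD9 and FZD10. At least 1 cIE lay in 30 loci, all but that of WNT2 (86.5% of all genes). For 60 of the 69 cAEs the nearest coding TSS was that of a member. The loci were drawn around the members, which favours such a count, and no share for other loci was computed. The median locus had 2 cAEs, or 1.73 per 100 kb, beside 1 and 0.916 per 100 kb over all genes.

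Among the 13 ligands whose promoters carried no H3K27ac, WNT2 and WNT8A were the only 2 with no cAE in the locus. The share with a cAE was 69.0% over all genes and was not computed for genes without promoter H3K27ac. Some of these cAEs lay nearer the TSS of another gene. Those of WNT1 were nearer ARF3 or DDN, those of WNT6 nearer WNT10A, and the only one of WNT9B nearer WNT3. WNT7B had the most cAEs, 9, followed by WNT2B and LRP5 with 7 each, WNT3 with 6, and FZD2 and WNT11 with 4 each. In WNT7B they lay from 38.4 kb upstream to 74.3 kb downstream of the TSS, and 3 of them in introns of the gene. The 6 of WNT3 all lay downstream, between 21.4 and 92.4 kb from the canonical TSS, and the pair beside the start sites 46.4 kb and 47.2 kb downstream overlapped Pol II. As enhancers were kept apart from canonical start sites only, that pair may belong to a promoter, and so may the WNT2B region 41.7 to 44.2 kb upstream, which overlapped H3K4me3, Pol II and CTCF. WNT7A, an epithelial ligand with no peak at its TSS, had 3 cAEs, of which 2 were intronic, at 25.7 to 31.2 kb and at 37.8 to 40.8 kb downstream. WNT16, a bone-associated ligand also without any peak at its TSS, had 2, both upstream, and WNT8B had 1 over a coding exon.

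WNT5A was the converse, with wide promoter marks, 0 cAEs and 6 cIEs in the locus, and the nearest cAE 324 kb away. FZD3 likewise had all 3 promoter lists and no cAE within its locus. WNT2, FZD9 and FZD10 had no H3K27ac peak anywhere in the locus, as for 12.7% of all genes. In the locus of WNT2 the 6 lists together held 2 peaks, 1 of CTCF and 1 of p300/CBP. The FZD10 locus held 3 H3K4me1 regions and nothing else, and that of FZD9 held 1 peak each of H3K4me1, Pol II and CTCF.

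The nearest cAE was between 1502 bp (FZD2) and 373 kb (FZD10) from the TSS, with a median of 18.4 kb beside 33.5 kb over all genes. In 5 members it lay no further than 2.19 kb from the TSS, close to the edge of the window (FZD2, FZD7, WNT9A, FZD8 and LRP5). CTCF was listed in 29 of the 31 loci (92.8% of all genes), with none at FZD1 and FZD10. The highest count, 11, was that of WNT1 and WNT10B, whose overlapping loci held the same 11 peaks. A CTCF peak lay between the TSS and the nearest cAE in 16 of the 31 members (58.4% of all genes). The nearest cAE of WNT1 lay beyond the TSS of WNT10B, that of WNT6 beyond the TSS of WNT10A and that of WNT9B beyond the TSS of WNT3. These are pairs of WNT genes that lie side by side, and position does not show which gene, WNT or other, their cAEs act on. WNT1 and WNT10B, 6.59 kb apart, shared 2 cAEs, which lay nearest the TSSs of ARF3 (3.08 kb) and DDN (3.46 kb). WNT6 and WNT10A, 21.0 kb apart, shared 3, all nearest the WNT10A TSS. WNT3 and WNT9B, 32.9 kb apart, shared 1, nearest the WNT3 TSS. WNT3A and WNT9A, 59.1 kb apart, shared none.

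**Figure D5:**
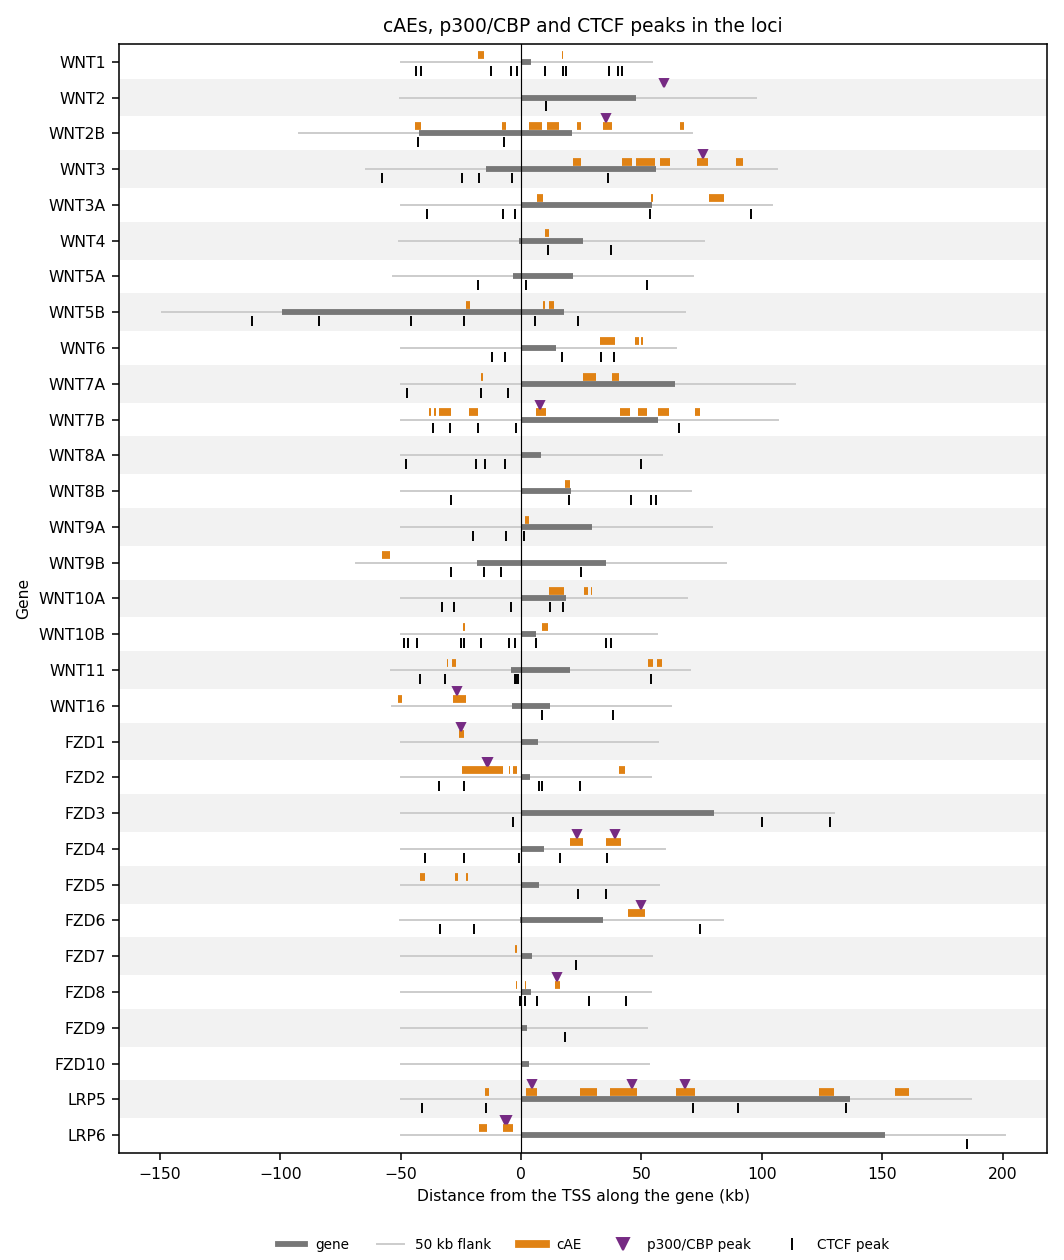
Candidate active enhancers (orange), p300/CBP peaks (triangles) and CTCF peaks (ticks) by distance from the TSS along the gene in kb, with the gene in dark grey and the 50-kb flanks in light grey, for all 31 members. The triangle of WNT2 stands over no orange bar, unlike the others, and the rows of WNT2, WNT5A, WNT8A, FZD3, FZD9 and FZD10 have no orange bar.

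p300 and CBP acetylate H3K27 at enhancers and are recruited by transcription factors. The member loci held 17 p300/CBP peaks, in 12 of the 31 loci (25.7% of all genes): 5 of 19 WNT, 5 of 10 FZD and both LRP loci. Of the 17 peaks 16 lay in a cAE, the other being a 100-bp peak near WNT2, while 50.1% of all p300/CBP peaks lay in one. That share depends on width, and for peaks as wide as those of the members it ran from 35.8% at 100 bp to 75.3% at 300 bp. p300/CBP touched 14 of the 69 cAEs, or 20.3%, close to the 20.6% of all 24323 cAEs. By family it touched 4 of 45 cAEs at WNT loci (8.89%), 6 of 15 at FZD loci (40%) and 4 of 9 at LRP loci (44.4%). Pol II touched 17 of the cAEs (24.6%, beside 21.0% of all cAEs), CTCF 16 (23.2%, beside 16.4%) and H3K4me3 34 (49.3%, beside 34.2%).

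The widest cAE, at FZD2, spanned 17150 bp from 24.6 to 7.45 kb upstream of the TSS. It held 2 p300/CBP peaks, 13.6 and 14.0 kb upstream, and 3 Pol II peaks. In LRP5, 3 intronic cAEs had p300/CBP, in peaks 4.29, 45.9 and 67.7 kb downstream of the TSS, while in LRP6 both p300/CBP peaks were in 1 cAE, 5.92 and 6.77 kb upstream. FZD4 had p300/CBP in 2 cAEs, 23.1 and 38.8 kb downstream, inside the annotated span of PRSS23. FZD1 and FZD8 each had a single p300/CBP peak, 24.9 kb upstream and 14.8 kb downstream, and that of FZD6 was 49.9 kb downstream, in a cAE closer to the TSS of CTHRC1. Among the ligands it was found in a WNT7B intron 7.79 kb downstream, 26.5 kb upstream of WNT16, in an intron of ST7L 35.1 kb downstream of WNT2B, and in an intron of NSF 75.6 kb downstream of WNT3.

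The sequences of 6 p300/CBP peaks are given below to show where TGANTCA falls, with its letters in capitals, 5′ to 3′ on the + strand of GRCh37. AP-1 is the family to which Fra-1 and Fra-2, the factors the study set out from, belong. The peaks of WNT2B (chr1:113086651-113086950), WNT3 (chr17:44820401-44820500), WNT7B (chr22:46365001-46365250), WNT16 (chr7:120942301-120942600) and LRP6 (chr12:12425901-12426100) each held 1 match, and the FZD2 peak (chr17:42620551-42620850) held none and is shown for contrast. The match was the AP-1 consensus, TGAGTCA or TGACTCA, at WNT3, WNT7B and WNT16. At WNT2B and LRP6 it was TGATTCA, which is outside the consensus.
WNT2B: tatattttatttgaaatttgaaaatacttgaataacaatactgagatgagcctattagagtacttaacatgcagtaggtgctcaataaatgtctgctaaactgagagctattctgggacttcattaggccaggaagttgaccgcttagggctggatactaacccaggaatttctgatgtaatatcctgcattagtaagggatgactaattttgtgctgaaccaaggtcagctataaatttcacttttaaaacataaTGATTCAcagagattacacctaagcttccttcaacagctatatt
WNT3: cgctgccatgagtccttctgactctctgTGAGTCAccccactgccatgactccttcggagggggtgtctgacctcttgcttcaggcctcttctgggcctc
WNT7B: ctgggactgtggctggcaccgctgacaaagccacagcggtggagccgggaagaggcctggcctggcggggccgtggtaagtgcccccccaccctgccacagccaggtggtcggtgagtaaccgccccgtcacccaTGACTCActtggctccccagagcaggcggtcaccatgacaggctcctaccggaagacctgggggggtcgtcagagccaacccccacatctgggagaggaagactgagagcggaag
WNT16: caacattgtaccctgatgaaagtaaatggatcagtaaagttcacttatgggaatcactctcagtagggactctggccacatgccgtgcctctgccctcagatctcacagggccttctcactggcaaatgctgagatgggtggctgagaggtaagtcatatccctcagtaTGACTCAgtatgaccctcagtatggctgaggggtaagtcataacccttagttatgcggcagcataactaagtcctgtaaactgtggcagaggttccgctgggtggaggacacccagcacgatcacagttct
LRP6: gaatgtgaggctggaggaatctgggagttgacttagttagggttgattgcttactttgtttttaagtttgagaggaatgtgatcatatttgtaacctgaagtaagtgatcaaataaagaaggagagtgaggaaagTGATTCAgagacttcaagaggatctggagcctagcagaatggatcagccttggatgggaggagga
FZD2: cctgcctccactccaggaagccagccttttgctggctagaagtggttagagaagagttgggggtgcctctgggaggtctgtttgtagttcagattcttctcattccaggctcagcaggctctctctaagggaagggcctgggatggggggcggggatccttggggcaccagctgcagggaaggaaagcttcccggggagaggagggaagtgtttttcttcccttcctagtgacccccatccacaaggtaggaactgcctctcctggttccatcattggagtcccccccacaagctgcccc

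TGANTCA, which reads the same on both strands, was found in 5 of the 17 peaks: 4 of the 5 at WNT loci, 0 of the 7 at FZD loci and 1 of the 5 at LRP loci. The share over the list, also with any base at N, depends on width, from 11.3% of the 100-bp peaks to 37.9% at 200 bp, 50.8% at 250 bp, 54.5% at 300 bp and 43.5% at 500 bp. Within cAEs it was 20.8%, 50.7%, 58.7%, 60.4% and 54.3% at the same widths. Both FZD2 peaks, of 300 bp, lacked it. CTTTGAT, the TCF/LEF core, was found in 0 of the 17 peaks, beside 2.03% to 9.57% of p300/CBP peaks of these widths. A count of 17 peaks leaves all of these shares imprecise.

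The rest of the pathway was read at the same windows, from a list of 57 other genes. H3K27ac was listed at 31 of them (61.4% of all genes) and all 3 of H3K27ac, H3K4me3 and Pol II at 29 (56.2%), while 19 had none of the 6 lists (28.0%). The list as a whole was thus near the shares over all genes, and its groups, which differed from each other, are described against the same 61.4%. The steps inside the cell were marked almost throughout. H3K27ac was present at 10 of 11 cytoplasmic transducers, such as the Dishevelled, Axin and GSK3 genes and CTNNB1 itself, with APC2 the exception, and at 8 of 8 nuclear partners of beta-catenin. Secreted antagonists, like the ligands, were mostly without it. H3K27ac was listed at 1 of 12 of these, DKK1, an inhibitor of LRP5 and LRP6, and it was absent from the other 11.

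Between these ends, 2 of 4 genes whose products modify or carry WNT proteins had H3K27ac. They were PORCN, the acyltransferase that lipidates WNTs, and WLS, their carrier to the cell surface, while NOTUM and AFM had none. R-spondins amplify WNT signals through LGR receptors, and H3K27ac was listed at 3 of 9 genes of that group, LGR4, LGR5 and ZNRF3, but at no R-spondin gene. Of 8 other receptors and co-receptors, 4 had it (ROR1, RYK, KREMEN1 and KREMEN2). Among 11 known target and feedback genes 8 had it, the exceptions being RNF43, NKD1 and NKD2. The groups overlap, since 6 of these 11 (AXIN2, LGR5, RNF43, ZNRF3, TCF7 and LEF1) were also counted among the transducers, the R-spondin group or the nuclear partners.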

How the data were processed

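ChIP-seq had been carried out in MDA-MB-231 cells, with 13 samples in all, of which the 2 inputs were not used here. The paper's methods name BWA as the aligner and the submitters' processing notes Bowtie2, with hg19 as the genome. The authors turned uniquely mapped reads into a PASHA signal with 50-bp bins, merged the replicates (2 for each target, 1 library for p300/CBP) and took the stretches that passed a threshold in the Integrated Genome Browser as peaks. Per the names of the deposited files, the threshold was 30 for H3K4me1 and H3K4me3, 50 for H3K27ac, Pol II and CTCF and 60 for p300/CBP. The signals were scaled except for CTCF, and background was removed from all but Pol II and CTCF. Stretches were merged over gaps of 1000 bp or less for H3K4me1, 800 bp for Pol II, 500 bp for H3K27ac and H3K4me3 and 50 bp for p300/CBP and CTCF, so that widths cannot be compared between lists. The deposited lists hold 3 columns, chromosome, start and end, and no value per peak, and 0 columns of values were left unmapped. Depth per sample is unknown from them.

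The members and the lists of other genes were chosen with earlier results of these data known. A peak's end was taken as the first base after it. Canonical TSSs came from GENCODE release 44 mapped to GRCh37, with 1 TSS for each protein-coding gene. No peak ran past a chromosome end of GRCh37, from which the sequences were read; a table of RefSeq promoters on another build was not used. Overlaps were counted with Python 3.11.15 and NumPy 2.4.6 and drawn with matplotlib 3.10.9, after the interval functions had been tested on simulated data (0 wrong in 4160 comparisons). All 31 members are named in the text, with neighbouring genes where a described peak lies in them. Other pathway genes are given as counts for each group, with names mainly for the less frequent side. No test was made, since merged lists have no replicate error and genes are not replicates. Alternatives changed the start sites, the window, the shared bases, the flank, the definition of enhancers and the width of the peaks kept.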

Additional observations from a re-analysis of the deposited data

How the results depend on the processing

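Of 57 alternative values for 13 counts, 40 stayed within 1.5 times the value reported and 17 did not. No stricter threshold could be applied without a height for each peak, so peaks narrower than their list's median width were dropped instead. That setting left H3K27ac at 9 members, H3K4me1 at 13, Pol II at 5 and CTCF at 2 windows, 27 cAEs, 78 cIEs, and 11 p300/CBP peaks in 7 loci. CTCF was at 1 window of 1 kb and at 9 of 5 kb, and H3K4me1 at 8 windows of 1 kb and at 13 where 50% of the peak or window had to be shared. The loci held 106 cAEs with flanks of 100 kb, 106 with promoters kept and 19 where H3K27ac had to cover 50% of the region. Pol II over the gene body was found at 2 members, FZD2 and FZD8, both with peaks under 5 kb apart joined and with 25% of the body in place of 50%.

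Under each window, overlap and start-site setting 8 FZD genes had H3K27ac and 8 had Pol II, and 5 to 7 WNT genes had H3K27ac and 2 to 4 had Pol II. With wide peaks alone the counts were 4 and 4 for FZD and 3 and 0 for WNT genes. No paired analysis was possible because each list pools its replicates, and leaving one out was not possible either. Genes with signal below the threshold cannot be told apart from genes without any.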

Other observations

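Near WNT16, which had no Pol II in its window or gene body, a Pol II peak lay past the end of the gene, 16.5 to 17.9 kb downstream of the TSS.

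At LRP5, where the Pol II peak began downstream of the TSS, H3K27ac and the larger H3K4me3 peak were displaced in the same direction, and GENCODE lists 1 start site among basic transcripts.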
